A study of Mus musculus with 2 samples.

Results

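The subunits of the respiratory chain were followed in single cells of mouse 4T1 tumours. They were picked by gene symbol from all 32285 listed genes, without using any measured value, and 96 genes matched. Of these, 13 are encoded by the mitochondrial genome, the full set of its protein-coding genes, and 83 by the nucleus. The mitochondrial genes supply 7 subunits of complex I, 1 of complex III, 3 of complex IV and 2 of complex V. The nuclear genes supply 35 for complex I, 4 for complex II, 8 for complex III, 18 for complex IV (here with Ndufa4, whose protein is now placed there) and 17 for complex V. One more nuclear gene, Cox7a2l, encodes a factor that joins complexes III and IV and is not a subunit of a single complex. Ndufab1 and Ndufa4l2 fall outside the symbol rule and are described with the related lists. Because the rule goes by symbol, the nuclear counts need not hold every subunit of a complex.

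The respiratory chain passes electrons from NADH (through complex I) and succinate (complex II) to complex III, cytochrome c and complex IV, and complex V uses the resulting proton gradient to make ATP. Complexes I, III, IV and V are built from subunits of both genomes, whereas complex II is wholly nuclear. Mitochondrial genes are transcribed as long polycistronic RNAs by their own polymerase, Polrmt, and cut into single transcripts, while each nuclear subunit has its own promoter. The levels of the nuclear and the mitochondrial transcripts can therefore be set apart from each other.

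The tumours were grown under the skin from 4T1, a mouse mammary carcinoma line, and taken on day 7 after phototherapy. One library came from mice given AIE COF (a covalent organic framework) with phototherapy, called treated below, and 1 from mice given PBS, a saline control. The host strain is written C57BL/c in the labels, a name left here as it stands, and the labels attach the same protocol text to both samples. Of genotype, age, the number of animals per suspension and any illumination of PBS mice, nothing is said in the sources used here. With 1 library per group, no difference between treated and PBS has a replicate check and none was tested. Intervals are exact 95% intervals for counting error only.

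Unique molecular identifiers (UMIs, each standing for 1 captured transcript) were summed over cells and written as CPM, counts per 1000000 UMIs of the same cells. In total 115576457 UMIs from 10002 barcodes were read for treated and 145045294 from 8962 barcodes for PBS tumours. Filters left 8619 and 7864 cells, whose medians were 3886 and 6355.5 UMIs. Barcodes with over 20% of UMIs from the 13 mitochondrial genes were removed, so the filter uses members of the set, and the results are given without it where that matters. The libraries shared 39 barcode sequences, 27 of them among the kept cells. Clusters were made with none of the 96 genes among the variable genes. Named classes with at least 100 cells in each library were B-like, T-like, Macrophage-like and Conventional dendritic-like cells. A class of 2607 treated and 3085 PBS cells had little Ptprc, the leukocyte gene of CD45 (14.6 and 6.23 CPM), and is called Ptprc-low. Of the 8 epithelial markers examined there, including Epcam (0.504 and 0.531 CPM) and Krt18 (0 and 2 UMIs), Krt14 alone passed 1 CPM in either library (1.07 and 1.57 CPM). The 4T1 label therefore had no epithelial marker support in that class, and it keeps its descriptive name. Clusters 6, 7, 8, 10, 12 and 13 had no name from the markers, which makes 11 classes and clusters in all. Clusters 7, 8, 10, 12 and 13, called low-RNA clusters below, had medians over both libraries of 890 to 3174 UMIs, against at least 25337 in each Ptprc-low cluster. B-like cells, with a median of 1221 UMIs, and the T-like clusters 2 and 11, with 1645.5 and 1852, were as low. These had markers of their own type among their leading genes. Cluster 8 met 9 of 10 Macrophage markers but had none of them leading, and at a median of 890 UMIs it kept no name. Cluster 6 also met 9 of 10 Macrophage markers but was led by monocyte markers.

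Sequences show where the members can and cannot be told apart and what their promoters share. In GENCODE M21 on GRCm38, mt-Atp8 (chrM:7766-7969) and mt-Atp6 (chrM:7927-8607), adjacent complex V subunits read from 1 transcript, share 43 bases at chrM:7927-7969. Reads within that stretch fit both genes. The capitals mark the start codon of mt-Atp6.
mt-Atp8 and mt-Atp6 shared stretch, plus strand: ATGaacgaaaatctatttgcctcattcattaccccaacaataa
The mt-Nd4l and mt-Nd4 genes share 7 bases, and mt-Nd5 and mt-Nd6 share 14 bases on opposite strands. Near-identical nuclear copies (at least 97% identity over at least 90 of the last 500 bases) were found in the annotation for 6 of the 13 mitochondrial genes (mt-Co1, mt-Co2, mt-Atp6, mt-Co3, mt-Nd3 and mt-Nd4l). None of those copies is listed in the count table, and the handling of reads that fit both is not stated. The same kind of copy was found for 17 nuclear members.

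Promoters from RefSeq (GRCm38.p6, 250 bases before to 50 after the start) were matched for 67 of the 83 nuclear members, and 4 motifs were searched on both strands. The NRF1 core TGCGCANGC, named for nuclear respiratory factor 1, occurred in 12 members (17.9%), against 4.70% of all 27025 genes with a listed promoter. The ETS core CCGGAAG, bound by the respiratory gene regulator GABP among others, occurred in 17 members (25.4%) against 9.93%. The YY1 core AAGATGG was found in 10 members (14.9%) against 7.28%, and the TATA box TATAAA in 8 members (11.9%) against 15.7%. These are letter matches and not measured binding. The promoter of Atp5l holds 3 kinds of motif, and 1 of 2 listed promoters of Atp5j is shown as an example with 2 kinds. The Atp5j promoter shown lies inside the annotated gene, and the other, at its annotated start, holds none of the 4 motifs. Both genes encode small complex V subunits. Their 250 bases before the start are shown with the motifs in capitals.
Atp5l, chr9:44920743-44920992, minus strand: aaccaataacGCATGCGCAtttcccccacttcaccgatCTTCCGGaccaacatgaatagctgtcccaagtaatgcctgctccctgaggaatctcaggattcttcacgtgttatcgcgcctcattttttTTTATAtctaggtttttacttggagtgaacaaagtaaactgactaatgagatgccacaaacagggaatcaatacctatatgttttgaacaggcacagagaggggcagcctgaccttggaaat
Atp5j, chr16:84834977-84835226, minus strand: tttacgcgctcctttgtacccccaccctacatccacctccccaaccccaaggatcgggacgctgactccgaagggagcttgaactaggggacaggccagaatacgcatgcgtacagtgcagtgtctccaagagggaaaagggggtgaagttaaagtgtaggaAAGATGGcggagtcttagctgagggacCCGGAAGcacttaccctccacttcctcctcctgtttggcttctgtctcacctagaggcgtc
In Atp5l the reverse complements of the NRF1 and ETS cores begin 240 and 212 bases before the start, and that of the TATA box begins 122 bases before it. In Atp5j the YY1 core begins 88 and the ETS core 61 bases before the start.

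The main difference between cell classes was the balance of the 2 genomes' transcripts. In Ptprc-low cells the 83 nuclear genes took 2.81% of treated and 2.99% of PBS UMIs, and the 13 mitochondrial genes 3.50% and 3.58%. B-like cells carried less than 50% of that nuclear share, 1.30% and 1.38%, with a mitochondrial share of 3.78% and 3.72%. Macrophage-like cells had the highest mitochondrial share of the named classes, 4.49% and 5.04%, beside a nuclear share of 2.19% and 2.21%. The plot of mitochondrial against nuclear share places every class once per library.

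**Figure D1:**
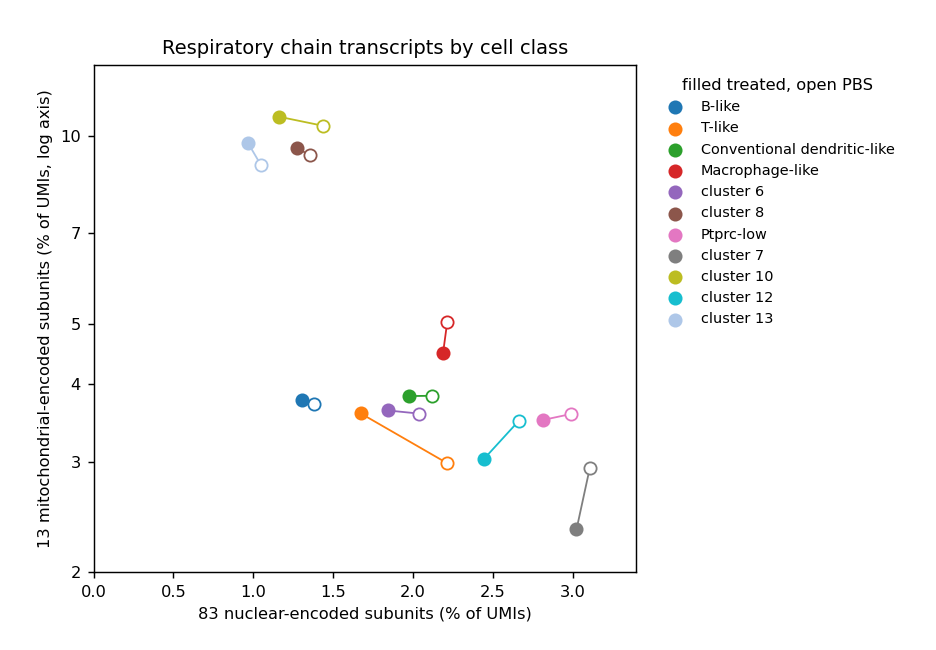
Percent of all UMIs from the 13 mitochondrial genes (vertical, log axis) against percent from the 83 nuclear genes (horizontal) for the 11 classes and clusters, with filled points for the treated and open points for the PBS library and a line joining the pair. Clusters 8, 10 and 13 sit between 9.0% and 10.7% mitochondrial and below 1.5% nuclear, all others below 5.1% mitochondrial, and every filled point lies to the left of its open partner.

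Mitochondrial UMIs per nuclear UMI ran from 0.774 in treated cells of cluster 7 to 10.1 in treated cells of cluster 13, and the highest mean of both libraries was 10.9 times the lowest. Ptprc-low cells had 1.246 and 1.20 (treated and PBS), Macrophage-like cells 2.05 and 2.27, and B-like cells 2.90 and 2.70. Clusters 8, 10 and 13 stood apart with 6.88 to 10.1. These 3 clusters also had Malat1, a nuclear-retained long noncoding RNA, at 63273 to 86011 CPM, whereas it lay between 6212 and 33636 CPM in the other classes and clusters. The part of damaged or nucleus-rich cells in those values was not tested. The span depended on the filter: it was 25.8 times with no mitochondrial limit and 4.40 times with a limit of 10%.

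Across the 11 classes and clusters the mitochondrial and nuclear CPM went opposite ways, with Pearson r = -0.76 and Spearman rho = -0.83 in the treated and r = -0.73 and rho = -0.75 in the PBS library. All points of a library share its preparation and depth, and both sums are shares of the same total. Over the 8 points left without clusters 8, 10 and 13, r was -0.58 and rho -0.57 in the treated and r was -0.32 and rho -0.55 in the PBS library. The relation stayed negative by both measures and was weaker by both.

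Within Ptprc-low cells, clusters 0, 3 and 5 kept the same order of cluster 0 over the others in both libraries. Cluster 0, led by Cilp, H19 and Postn, had 3.97% and 4.14% mitochondrial UMIs. The leading genes of cluster 3 included Ero1l, Ndrg1 and Ankrd37, known to be hypoxia-induced, beside others such as Klra4, Cdc20 and Cdkn3. Its values were 3.25% and 3.19%, and those of cluster 5, led by histone and cell division genes, 3.27% and 3.28%. The nuclear share was 2.77% to 2.85% in these 3 clusters of the treated library and 2.94% to 3.04% in PBS. Cluster 9, led by Dhdh and Selenbp1, stood near cluster 0 in the treated library (3.88% mitochondrial UMIs, 1.41 mitochondrial per nuclear UMI) and lower in PBS (3.64% and 1.22), where cluster 0 had 1.43 and 1.41 per nuclear UMI.

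Complex IV took a larger part of the nuclear subunit UMIs in Ptprc-low cells than in the immune classes. It held 35.1% and 35.7% there, against 28.6% to 31.5% over the B-like, T-like, Macrophage-like and Conventional dendritic-like cells of both libraries. Complex V was the counterpart, with 26.1% and 25.5% in Ptprc-low and 29.4% to 30.8% in those immune classes. Complex I was nearly level, at 25.02% to 27.3% over the same classes. Ndufa4, a small subunit of complex IV, was 1121 and 937 CPM in Ptprc-low cells and 222 and 213 CPM in Macrophage-like cells. Its class means spanned 5.39-fold, from 1173 CPM in cluster 7 to 217 CPM in Macrophage-like cells. Ndufa12, an accessory subunit of complex I, had the widest span, 5.56-fold, from 462 CPM in cluster 7 to 83 CPM in B-like cells. Uqcrb of complex III (5.32-fold), Atp5j (5.32-fold) and Atp5e (5.21-fold) of complex V were all lowest in cluster 13, and Ndufa5 of complex I (5.14-fold) in B-like cells. Sdha, the flavoprotein of complex II that also serves the citric acid cycle, had the smallest span of the members at 50 CPM or more, 1.86-fold.

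Tissue-restricted forms were rare and stood highest in myeloid classes. Cox6b2, known from testis, was counted at 9.42 and 9.21 CPM in Macrophage-like cells (76 treated and 51 PBS UMIs), at 16.6 and 16.9 CPM in cluster 6, which is led by the monocyte genes Plac8, Chil3 and Ly6c2, and at 25.4 and 28.1 CPM in Conventional dendritic-like cells (20 and 22 UMIs). In Ptprc-low cells it had 4 UMIs in each library. Cox4i2, the form of subunit 4 known from lung and low oxygen, stood at 6.07 and 4.87 CPM in Macrophage-like cells and at 7.67 and 7.85 CPM in cluster 6. Cox7a1, the heart and muscle form, gave 5.33 and 9.93 CPM in Macrophage-like cells, 7.41 and 9.02 CPM in cluster 6 and 0.441 and 0.465 CPM in Ptprc-low cells (35 and 49 UMIs). Cox6a2 was listed at 0 in both libraries and lies inside Itgad on the opposite strand. Cox8b (0 and 3 UMIs), Cox8c (1 and 0) and Cox7b2 (11 and 17) were at or near 0.

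In the tumour as a whole, nuclear subunits were slightly lower in the treated library and mitochondrial ones nearly level. The nuclear sum was 26279 CPM in treated and 28653 CPM in PBS cells, a log2 ratio of treated over PBS of -0.12 (-0.13 to -0.12). The mitochondrial sum was 36717 and 37629 CPM, a log2 ratio of -0.04 (-0.04 to -0.03). That sign depended on the filter, since the log2 ratio was 0.01 with no mitochondrial limit. Mitochondrial UMIs per nuclear UMI were 1.40 and 1.31. In these sums, fewer cells of a class and less RNA per cell cannot be told apart, so each class was also taken alone. When both libraries were given the mean class mix, the nuclear log2 ratio was -0.09 and the mitochondrial one -0.04.

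The nuclear sum was lower in the treated library in 11 of 11 classes and clusters, whereas the mitochondrial sum was lower in 5 of 11. The nuclear log2 ratio ran from -0.40 in T-like to -0.02 in Macrophage-like cells. For mitochondrial genes it ran from -0.33 in cluster 7 to 0.26 in T-like cells. More mitochondrial UMIs per nuclear UMI were found in the treated library in 8 of 11, the exceptions being Macrophage-like cells, cluster 7 and cluster 12. All 11 comparisons use the same pair of libraries and are not independent.

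**Figure D2:**
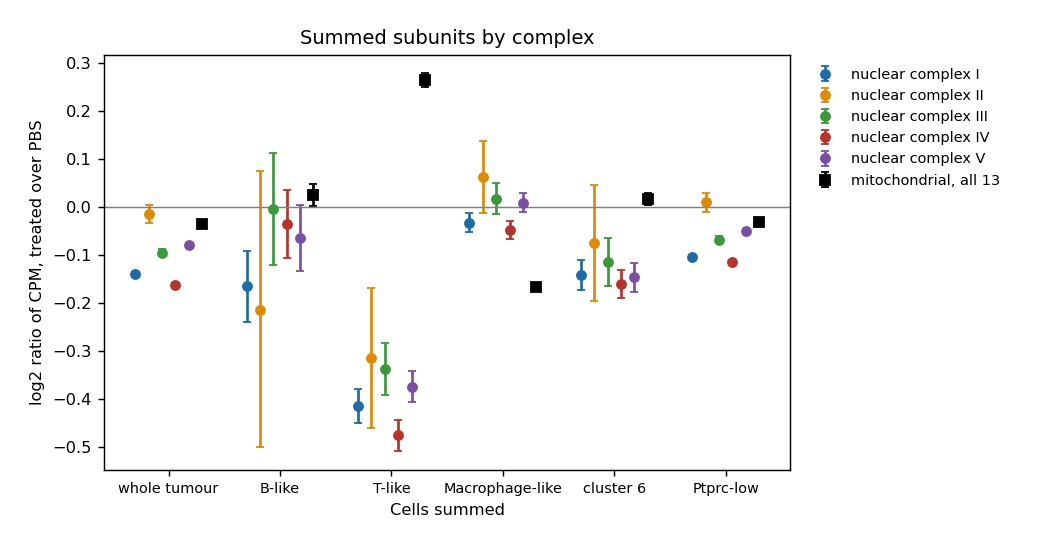
Log2 ratio of summed CPM, treated over PBS, for the nuclear subunits of each complex (circles) and for all 13 mitochondrial genes (squares), in the whole tumour and 5 classes or clusters, with bars for the exact 95% counting interval. T-like cells show the widest gap, with the square at 0.26 and the circles between -0.48 and -0.31.

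By complex, the whole-tumour nuclear sums were 6913 and 7614 CPM for complex I (log2 ratio -0.14), 446 and 451 CPM for complex II (-0.02, interval -0.03 to 0.00), 2702 and 2888 CPM for complex III (-0.10), 9005 and 10082 CPM for complex IV (-0.16) and 7016 and 7416 CPM for complex V (-0.08). Complex II was thus the one whose interval reached 0. The mitochondrial subunits of the same complexes had log2 ratios of -0.10 for complex I, -0.06 for complex III, -0.01 for complex IV and 0.00 for complex V.

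Single nuclear members differed little in the whole tumour. Of the 78 nuclear members with at least 50 UMIs over both libraries, 2 were at least 1.5-fold higher in the treated library, where 8.55% of all 15634 genes were, and 0 were at least 1.5-fold lower, where 4.98% of all genes were. Both higher ones were rare forms, Cox4i2 (122 and 87 UMIs, log2 ratio 0.80) and Cox6b2 (200 and 141 UMIs, 0.81), and within Macrophage-like cells and cluster 6 their log2 ratios lay between -0.03 and 0.32. The median log2 ratio was -0.12 over the nuclear members and 0.01 over all genes. A total of 61 of the 78 had a ratio below 1.

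The lowest whole-tumour ratios at 50 CPM or more were found in complexes I, IV and V. Ndufb2 of complex I (chr6:39592574-39603382, plus strand) was 176 CPM in treated and 236 CPM in PBS cells (log2 ratio -0.43, -0.45 to -0.40). Ndufa3 of complex I (chr7:3617373-3620327, plus strand) was 137 and 184 CPM (-0.42, -0.45 to -0.39). Both have a gene on the opposite strand over their last 500 bases, Braf and Tfpt, and counting by strand is not stated in the sources used here. Atp5k of complex V stood at 167 and 217 CPM (-0.38), Ndufb4 of complex I at 103 and 133 CPM (-0.37) and Cox8a of complex IV at 1076 and 1382 CPM (-0.36).

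The highest ratios among members at 50 CPM or more came from complexes II to V. Atp5a1, the alpha chain of the complex V catalytic head, was 412 CPM in treated and 360 CPM in PBS cells (log2 ratio 0.20, 0.18 to 0.22). Sdha (chr13:74322254-74350280, minus strand) was 120 and 105 CPM (0.18, 0.15 to 0.22). Atp5g3, a form of the rotating c subunit, was 402 and 358 CPM (0.16) and Uqcrfs1, the iron-sulfur Rieske protein of complex III, 182 and 163 CPM (0.16). Ndufa4, at 967 and 863 CPM (0.16), was the fifth.

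A set of 10 nuclear members was lower in the treated library in all 11 classes and clusters, out of 65 measured in each of them, where 2.19% of all 2651 genes so measured were. They were Ndufa3, Ndufb2, Ndufs7 and Ndufv3 of complex I, Sdhb of complex II, Uqcrq of complex III, Cox6b1, Cox7c and Cox8a of complex IV and Atp5k of complex V. For Ndufa3 the log2 ratio ran from -0.93 in cluster 10 to -0.18 in B-like cells. No member was higher in all 11, where 2.0% of all genes were. Higher in at least 9 of 11 were 5, where 17% of all genes were. These were Sdha (10 of 11, -0.25 to 0.68), Atp5a1, Atp5b and Atp5g3 of complex V, and Uqcrfs1. Atp5b, the beta chain of the catalytic head, had log2 ratios from -0.23 to 0.34. Within complex II, Sdha was thus above 0 in 10 of 11 and Sdhb below 0 in all 11. Some of these ratios were near 0, as for Sdha in T-like cells (0.01, -0.27 to 0.29) and Sdhb in cluster 8 (-0.02, -0.47 to 0.43). Of the other complex II genes, Sdhc was lower in 4 and higher in 7, and Sdhd was lower in 6 of the 7 where it was measured.

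In most classes longer members had higher ratios, a comparison chosen after the data had been seen. In Ptprc-low cells the median log2 ratio was -0.16 for 32 nuclear members with transcripts under 600 bases, -0.11 for 25 of 600 to 1000 bases and 0.02 for 19 of 1000 bases or more. Other nuclear genes in the same bins had medians of -0.03, -0.02 and 0.01. In T-like cells the members' medians were -0.56, -0.47 and -0.25, and those of other genes -0.21, -0.21 and -0.03. Members were thus below other genes of like length in all bins of T-like cells and in the 2 shorter bins of Ptprc-low cells. Across members, Pearson r between log2 ratio and log2 length was 0.44 in Ptprc-low (76 members) and 0.40 in T-like cells (74 members), 0.24 in the whole tumour (78 members) and 0.01 in B-like cells (72 members). In the other 8 classes and clusters it lay between 0.18 and 0.40. With GC content it was -0.36 in Ptprc-low and -0.28 in T-like cells. Genes are not independent replicates, and the part of length or GC content in the ratios was not tested.

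**Figure D3:**
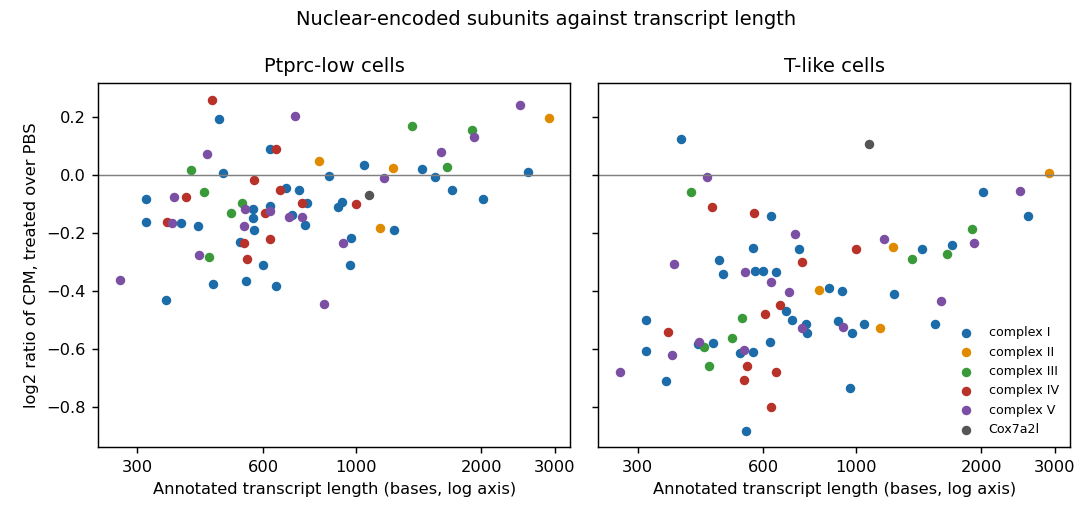
Log2 ratio of CPM, treated over PBS, for each nuclear member with at least 50 UMIs against its annotated transcript length in bases (log axis), in Ptprc-low (left) and T-like cells (right), coloured by complex. Most members under 1000 bases lie below 0 in both panels, and in T-like cells so do nearly all longer ones.

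T-like cells showed the widest gap between the genomes. The nuclear sum was 16726 CPM in treated and 22107 CPM in PBS cells (log2 ratio -0.40, -0.42 to -0.38), while the mitochondrial sum was 35921 and 29924 CPM (0.26, 0.25 to 0.28). There were 2.15 and 1.35 mitochondrial UMIs per nuclear UMI. Per cell, the mitochondrial share had a median of 3.38% (quartiles 2.73% and 4.17%) in treated and 2.86% (2.24% and 3.49%) in PBS T-like cells, so the middle ranges of cells overlapped. Median UMIs per cell were 1629 and 2518, Malat1 had a log2 ratio of 0.24 and the sum of 83 cytoplasmic ribosomal protein genes 0.12. The part of these in the gap was not tested. Col1a1, a collagen gene that T cells should lack, was 14 and 13.6 CPM in T-like cells, against 185 and 171 CPM in Ptprc-low cells.

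Of 74 nuclear members measured in T-like cells, 15 were at least 1.5-fold lower in the treated library, against 12% of all 7533 genes, and 0 were higher, against 7.86%. They comprised 6 members of complex I, 2 of complex III, 4 of complex IV and 3 of complex V, and none of complex II. Ndufa11, an accessory subunit of complex I, was 72.4 and 133 CPM (222 and 304 UMIs, log2 ratio -0.88, -1.14 to -0.63). Cox5b of complex IV was 294 and 512 CPM (902 and 1167 UMIs, -0.80, -0.93 to -0.67). The other complex IV members called lower were Cox7c (661 and 1079 CPM), Cox8a (599 and 947 CPM) and Cox5a (52.8 and 84.7 CPM), of which Cox5a has a gene on the opposite strand at its end. At the upper end stood Ndufa6 (log2 ratio 0.12) and Cox7a2l (0.10), whose intervals included 0.

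The T-like gap depended on which T-like cells each library held. Cluster 14, led by the cytotoxic genes Nkg7, Gzmb and Cd8a, took 7.2% of the T-like cells in the treated and 35.1% in the PBS library, and cluster 2, led by genes including Satb1 and Cd28, 75.2% and 43.5%. Nuclear subunits were 24961 and 25448 CPM in cluster 14 and 14358 and 17257 CPM in cluster 2, so cells of cluster 14 carried more of them in both libraries. With each of the 3 T-like clusters at equal weight, 1 nuclear member in place of 15 was at least 1.5-fold lower. The share of all genes at that weight is not given. The log2 ratios at equal weight were -0.15 for the nuclear and 0.17 for the mitochondrial sum. Within clusters 2, 11 (led by Ctla4 and Tnfrsf4) and 14 the nuclear log2 ratios were -0.27, -0.21 and -0.03, and the mitochondrial ones 0.19, 0.21 and 0.11. The nuclear interval of cluster 14 included 0 (-0.06 to 0.00). Both sums thus had the same signs in each cluster. Of the 15 members, chosen for their pooled ratio, 1 was at least 1.5-fold lower in cluster 2, 3 in cluster 11 and 0 in cluster 14. Over all nuclear members measured, the counts in that order were 2 of 74, 5 of 69 and 0 of 73. Over all genes they were 383 of 5561, 195 of 3515 and 391 of 4331.

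In Macrophage-like cells the order was the opposite. The mitochondrial sum was 44892 and 50376 CPM (log2 ratio -0.17, -0.17 to -0.16) and the nuclear sum 21886 and 22150 CPM (-0.02, -0.03 to -0.01). The nuclear sign turned when each cell had equal weight (0.01). Of 77 nuclear members, 1 was at least 1.5-fold lower, Cox7a1 (43 and 55 UMIs), against 6.76% of 9635 genes, and 0 were higher, against 4.33%. Atp5a1 (log2 ratio 0.42) and Uqcrfs1 (0.38) were the highest, and Ndufb4 (-0.48) and Ndufs7 (-0.47) the lowest of those at 50 CPM or more. Median UMIs per cell were 9386.5 in treated and 7631 in PBS Macrophage-like cells, and Malat1 had a log2 ratio of -0.44. The part of either in the result was not tested.

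Ptprc-low cells, which held most of all UMIs, differed little between the libraries. Their mitochondrial sum was 35046 and 35837 CPM (log2 ratio -0.03) and their nuclear sum 28117 and 29896 CPM (-0.09). None of 76 nuclear members was 1.5-fold lower (5.29% of 14213 genes were) or higher (4.21%). Ndufa3 (138 and 186 CPM, -0.43) and Ndufv3 (-0.38) were lowest and Ndufa4 (1121 and 937 CPM, 0.26) and Atp5a1 (0.24) highest of those at 50 CPM or more. Within clusters 0, 3, 5 and 9 the nuclear log2 ratio lay between -0.12 and -0.08, whereas the mitochondrial one ran from -0.06 in cluster 0 to 0.09 in cluster 9. With these 4 clusters at equal weight the mitochondrial log2 ratio turned to 0.01. A mitochondrial difference of a set direction was therefore not seen in these cells.

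In B-like cells the mitochondrial sum was 37779 and 37156 CPM (log2 ratio 0.02) and the nuclear sum 13032 and 13773 CPM (-0.08, -0.12 to -0.04). Of 72 nuclear members, 5 were at least 1.5-fold lower (4.31% of 5087 genes were) and 0 higher (7.41%). Those 5 were Ndufb4 (49 and 39 UMIs), Atp5k (94 and 60), Ndufs1 (30 and 22), Ndufs7 (110 and 64) and Ndufv2 (95 and 55). Their share is near the background, and each rests on few UMIs.

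Among the low-RNA clusters, cluster 10 had 9 of 72 nuclear members at least 1.5-fold lower (7.77% of 5858 genes were) and 1 higher, Uqcrfs1 (65 and 81 UMIs, log2 ratio 0.69), against 8.65%. Its nuclear log2 ratio was -0.31 and its mitochondrial one 0.05. In cluster 13, 7 of 68 were lower (7.03% of 4924 genes) and 2 higher (5.69%), namely Ndufv1 (25 and 27 UMIs) and Uqcrfs1 (30 and 37 UMIs). Cluster 7, with the highest nuclear share of all, had a mitochondrial log2 ratio of -0.33 (23398 and 29325 CPM), and 13 of its 13 mitochondrial genes had a ratio below 1. Cluster 12 stood at -0.20 for the mitochondrial and -0.12 for the nuclear sum.

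The 13 mitochondrial genes did not differ alike, although all but mt-Nd6 are read from the same strand. In the whole tumour mt-Nd2 (chrM:3914-4951), a core subunit of complex I, was 852 CPM in treated and 1380 CPM in PBS cells (log2 ratio -0.70, -0.71 to -0.68). It was the 1 mitochondrial gene at least 1.5-fold lower there. Its upstream neighbour mt-Nd1 (chrM:2751-3707), also of complex I, was 3455 and 2983 CPM (0.21, 0.21 to 0.22). Adjacent genes of the same complex thus lay on opposite sides of the mitochondrial sum.

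**Figure D4:**
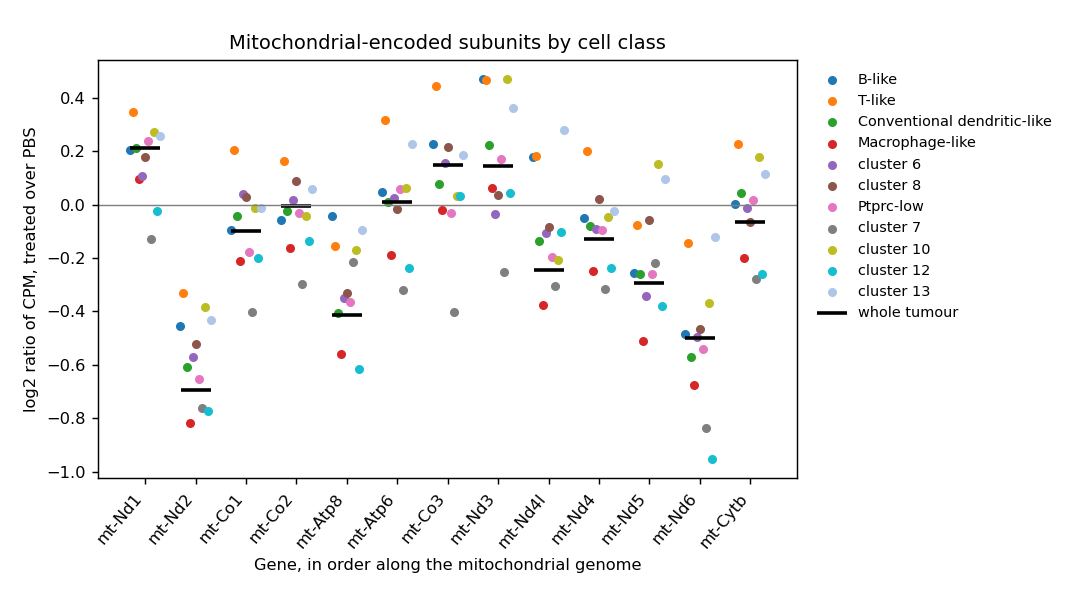
Log2 ratio of CPM, treated over PBS, for each of the 13 mitochondrial genes in order along the mitochondrial genome, with 1 coloured point per class or cluster and a black bar for the whole tumour. All 11 points of mt-Nd2, mt-Atp8 and mt-Nd6 lie below 0, and the mt-Nd1 points reach from -0.13 to 0.35.

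Of the other complex I genes, mt-Nd6 (chrM:13552-14070, minus strand) was 306 and 434 CPM (log2 ratio -0.50), mt-Nd5 760 and 933 CPM (-0.29), mt-Nd4l 167 and 198 CPM (-0.25), mt-Nd4 3867 and 4226 CPM (-0.13) and mt-Nd3 414 and 375 CPM (0.14). The cytochrome b gene of complex III, mt-Cytb, was 4050 and 4231 CPM (-0.06). The mitochondrial subunits of complex IV were at 5133 and 5498 CPM for mt-Co1 (-0.10), 3671 and 3682 CPM for mt-Co2 (0.00) and 3342 and 3014 CPM for mt-Co3 (0.15). Of complex V, mt-Atp6, the channel subunit, was at 10546 and 10471 CPM (0.01) and mt-Atp8 at 155 and 206 CPM (-0.41). Of the 9 genes with a ratio below 1, 5 were of complex I, which also supplies 7 of all 13.

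For 3 of the 13 genes, mt-Nd1, mt-Nd2 and mt-Nd6, the side of the mitochondrial sum was the same in every class. The log2 ratio of mt-Nd2 was below 0 in 11 of 11 classes and clusters (-0.82 in Macrophage-like to -0.33 in T-like cells) and below that of the mitochondrial sum in 11 of 11, by 0.43 to 0.65. For mt-Nd6 both counts were also 11 of 11, while mt-Atp8 was below 0 in 11 of 11 but below the sum in 10 of 11 and mt-Nd5 below the sum in 9 of 11. In contrast, mt-Nd1 lay above the mitochondrial sum in all 11, by 0.08 to 0.27. In Ptprc-low cells mt-Nd2 was 882 and 1389 CPM and mt-Nd1 3334 and 2826 CPM. In T-like cells, where the mitochondrial sum was higher in the treated library, mt-Nd2 was still lower (582 and 732 CPM), as was mt-Nd6 (378 and 417 CPM). In Macrophage-like cells both were at least 1.5-fold lower, mt-Nd2 with 664 and 1171 CPM and mt-Nd6 with 439 and 701 CPM. No near-identical nuclear copy was found for mt-Nd1, mt-Nd2 or mt-Nd6, while mt-Nd6 overlaps mt-Nd5 on the other strand. The classes share the libraries, so the recurrence is no replicate check.

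Genes around the chain were read from lists of related function. Over all 15634 genes of the whole tumour, 8.55% were at least 1.5-fold higher and 4.98% lower. In the whole tumour the assembly factors, which help build the complexes, had 40 of 43 genes measured, 0 higher and 1 lower by 1.5-fold, and a median log2 ratio of -0.05. That one was Atpaf1, an assembly factor of complex V (5.96 and 9.49 CPM, log2 ratio -0.67), followed by Timmdc1 of complex I (17.5 and 24.0 CPM, -0.46), while Coa5 (0.29) and Cox11 (0.26) of complex IV were highest. Electron carriers and chain genes outside the symbol rule had 16 of 17 genes measured and a median of -0.06, with 1 higher, the hypoxia-linked paralog Ndufa4l2 (77 and 40 UMIs, 1.26). Of the classes and clusters compared, Ptprc-low cells held the most Ndufa4l2, with 3 treated and 8 PBS UMIs (-1.01). Most of its UMIs thus lay in cells outside those comparisons. The inhibitor of complex V, Atpif1, was 223 and 273 CPM (-0.30) and the acyl carrier subunit Ndufab1 195 and 238 CPM (-0.28), and Coq2 of ubiquinone synthesis stood at 0.20. Both lists thus lay near 0, with Atpif1 and Ndufab1 close to the lower chain members.

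Genes for mitochondrial transcription and RNA handling had 23 of 24 measured and none past 1.5-fold. Their median was 0.01, against a median of -0.10 over the 13 mitochondrial genes. Their extremes were Mterf1a (115 and 189 UMIs, -0.41), Polg2 (-0.31), Tfb2m (36.1 and 29.4 CPM, 0.30) and Fastkd3 (107 and 100 UMIs, 0.41). Mitochondrial translation factors (11 of 11 measured) had a median of -0.04 and none past 1.5-fold, from Gfm2 (-0.21) and Taco1 (-0.18) to Gfm1 (0.16) and Oxa1l (0.18). Nuclear regulators of respiratory genes (12 of 12) had a median of 0.01 and 1 higher, the coactivator gene Ppargc1a (50 and 24 UMIs, 1.37). Next came Nfe2l2 of the oxidative stress response (155 and 113 CPM, 0.45), and Esrra (-0.13) and Pprc1 (-0.10) were lowest.

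The citric acid cycle, which feeds the chain with NADH and succinate, had a median of the other sign in the whole tumour. All 17 genes were measured, none passed 1.5-fold, and the median was 0.11, with the citrate synthase gene Cs at 114 and 99.1 CPM (0.20), Ogdh at 0.19 and Idh3b at 80.9 and 96.5 CPM (-0.26). The outer membrane and mass list (15 of 15) had a median of -0.02 and none past 1.5-fold, from Phb (45.6 and 61.1 CPM, -0.42) and Tomm20 (-0.24) to Vdac2 (0.19) and Hspa9 (283 and 245 CPM, 0.21). Neither list had a median as low as the -0.12 of the nuclear chain members. Transcript length was not matched between the lists, and the 19 nuclear members of 1000 bases or more had a median of -0.04.

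In T-like cells the same lists had medians below 0, with the regulators as the exception. These are values of the pooled T-like cells, whose cluster mix differed between the libraries. Assembly factors had a median of -0.08 (31 measured, 1 higher, 5 lower), led downward by Cox17, a copper chaperone of complex IV (256 and 515 CPM, log2 ratio -1.01), and Coa3 (-0.72), the other 3 being Cox19, Ndufaf7 and Uqcc2, with Coa7 (48 and 14 UMIs, 1.35) and Ttc19 (0.48) at the other end. Electron carriers had a median of -0.34 (12 measured, 0 higher, 2 lower), namely Etfb (55.1 and 116 CPM, -1.08) and the cytochrome c gene Cycs (281 and 435 CPM, -0.63), with Pdss2 at 0.36 and Coq9 at 0.25. The citric acid cycle stood at -0.19 (16 measured, 2 lower: Idh3a at -0.73 and Idh3b at -0.61). Regulators stood at 0.24 (10 measured), with Myc 1.5-fold higher (141 and 68 UMIs, 0.62) and Ppargc1b lower (27 and 31 UMIs, -0.63). Transcription and RNA handling stood at -0.09 (13 measured, 1 higher, 0 lower) and translation factors at -0.22 (8 measured, 0 higher, 0 lower). The outer membrane and mass list stood at -0.19 (14 measured, 0 higher, 1 lower). For comparison, the nuclear members had a median of -0.42 and all genes -0.06 in these cells. Of all 7533 genes there, 12% were at least 1.5-fold lower and 7.86% higher. The counts of each list are small and are not read as particular to it.

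Several members could not be read. Ndufa13, a complex I subunit, was listed at 0 in both libraries and lies inside Yjefn3. Atp5o of complex V, usually abundant, had 152 and 238 UMIs and is overlapped by Gm15976 and matched by a copy of the same name. In all, 12 nuclear members had another listed gene over their last 500 bases. Low values of such genes are uncertain and are not read as low expression.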

How the data were processed

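Single-cell RNA was measured in 1 treated and 1 PBS library. The authors deposited unnormalized UMI counts, whole numbers for each gene in each barcode. STAR and mm10 come from the submitters' processing notes, with STAR's version, the counting program and the annotation unknown here. Members and lists were chosen with earlier results of these data known. Barcodes needed at least 200 genes and at most 20% mitochondrial UMIs, and Scrublet (scanpy 1.11.5) removed 694 treated and 569 PBS barcodes as likely doublets, at 0.8% per 1000 barcodes. Cells were clustered by Leiden (leidenalg 0.10.2, resolution 1.0) on 2000 variable genes, 30 components and 15 neighbours. Clusters were named by fixed markers: more than 50% of those detected, 3 or more, had to stand at 25% or more of the marker's peak among clusters and be seen in 5% or more of cells. Clusters led by another type's markers, or with a median UMI count below the library's median divided by 3 and no own marker leading, kept no name. Ptprc-low clusters had under 100 CPM of Ptprc and medians of at least 10000 UMIs.

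Counts were summed over classes with 100 or more cells per library, and ratios carry exact conditional binomial 95% intervals (scipy 1.17.1), tested on simulated data. "Measured" means at least 50 UMIs over both libraries. Counts of 0 in 1 library were set to 3 for calls. Named by rule were the 13 mitochondrial genes, the 5 highest and 5 lowest nuclear ratios of the whole tumour and 2 of each class at 50 CPM or more (not all are printed), the 6 widest class spans, the tissue-restricted forms and up to 2 extremes each way per list. Some results are not reported here. Other members, named from small counts or as examples, were chosen after their values were seen. Alternatives covered the mitochondrial limit, doublets, cell weights, thinning to 1000 UMIs, class mix and clustering.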

Additional observations from a re-analysis of the deposited data

Results flagged for a closer look

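The mitochondrial sum had opposite signs in T-like and Macrophage-like cells, with log2 ratios of treated over PBS of 0.26 and -0.17. With 1 library per group this difference between classes was not tested, and it falls to 0.17 against -0.17 when the T-like clusters have equal weight. Clusters 6 and 8, which also met 9 of 10 Macrophage markers, did not share the Macrophage-like direction in mitochondrial per nuclear UMIs. Their log2 ratios were 0.16 and 0.13, against -0.15 in Macrophage-like cells. The value for Macrophage-like cells is thus that of 1 cluster.

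Barcodes over the mitochondrial limit lay outside the main comparisons and entered only those with no such limit. Their high mitochondrial share follows from how they were picked. In the treated library 683 barcodes (6.83%) and in PBS 527 (5.88%) were over the limit of 20% mitochondrial UMIs. In these the mitochondrial genes took 32.2% and 27.7% of UMIs and the nuclear members 0.621% and 0.770%, with medians of 1771 and 2159 UMIs and Malat1 at 77225 and 91216 CPM. The nearest cluster was cluster 10 for 404 treated and 260 PBS barcodes.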

How the results depend on the processing

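All values here are log2 ratios of treated over PBS unless named otherwise. The whole-tumour mitochondrial sum (-0.04) turned to 0.011 with no mitochondrial limit and was -0.013 with a 10% limit, -0.027 with doublets left in, -0.15 with equal cell weight, -0.15 thinned to 1000 UMIs, -0.044 at the mean class mix and -0.018 without the low-RNA clusters. In that order the nuclear sum (-0.12) was -0.13, -0.13, -0.13, -0.24, -0.21, -0.087 and -0.13. Mitochondrial per nuclear UMIs (0.09) stood at 0.14 with no limit, 0.12 with a 10% limit, 0.11 with doublets, 0.055 thinned, 0.042 at the mean class mix and 0.11 without the low-RNA clusters. Signs turned also for the Macrophage-like nuclear sum (0.0079 with equal cell weight, 0.0033 thinned), the Ptprc-low mitochondrial sum (0.013 with equal cluster weight) and Ptprc-low mitochondrial per nuclear UMIs (-0.0045 with equal cell weight, -0.012 thinned). The cluster 6 mitochondrial sum turned to -0.0026 with no limit, -0.024 with equal cell weight and -0.037 thinned, and the cluster 8 nuclear sum to 0.025 with a 10% limit. T-like nuclear members at least 1.5-fold lower (15) numbered 1 with equal cluster weight and 48 at a ratio of 4/5 or less. The share of all genes is not given for either setting, so neither count is read as particular to the members. The span of mitochondrial per nuclear UMIs over classes (10.9) was 25.8 with no limit, 4.40 with a 10% limit, 8.29 with equal cell weight and 8.89 thinned. The causes were not tested. The nuclear sum was lower in 11 of 11 classes and clusters with no mitochondrial limit, in 9 of 10 with a 10% limit, and in 10 of 11 with equal cell weight or thinned. Equal weights for T-like clusters, for Ptprc-low clusters, the length bins and leaving out low-RNA clusters were chosen after seeing the data. Depth limits members under about 50 UMIs. No paired analysis was possible because each group has 1 library.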
